A study of Drosophila melanogaster with 24 samples.

Results

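The levels of 10 genes of the early nervous system of Drosophila melanogaster were followed in single embryos that lack Acf and in wild-type embryos. The genes were taken by their symbols, as columnar, proneural and early neuroblast genes, from a table of 17370 genes, of which 13728 are protein-coding. vnd and ind are columnar genes, SoxN and D are Sox genes of the neuroectoderm, ac and l(1)sc are proneural genes, and wor, nerfin-1, pros and mira act in neuroblasts and their daughters. All 10 were found in the table.

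Acf encodes ACF1, the larger subunit that pairs with the ATPase ISWI in the nucleosome remodelers ACF and CHRAC. The study asked how the transcriptome of the embryo depends on ACF1 before and after the zygotic genome is activated. Each library was made from 1 whole embryo, picked by its morphology, and 6 embryos were sequenced per genotype and stage. The 4 groups were AcfC at Bownes Stage 8 (around 4 h), wild type (OrR, Oregon-R) at Stage 8, AcfC at Bownes Stage 3 (around 1 h) and wild type at Stage 3. AcfC is a single CRISPR/Cas9 allele that removes most of the Acf gene but leaves its UTRs, made in another strain and then backcrossed to OrR for 8 generations, so each genotype is represented by 1 line. The wild-type embryos carry no transgene or treatment that the labels name. An AcfC embryo of Stage 3 was left out by the study for improper staging, and its number is not given in the sources used here. It was taken here to be replicate 2, as inferred from mean counts that the study tabulated. Replicate 2 entered no test here, so that the tests at Stage 3 used 5 AcfC and 6 wild-type embryos, but its values are given.

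The ventral nerve cord of the fly arises from the neuroectoderm, the ventrolateral sheet of the blastoderm and gastrula. Its dorsoventral columns are set by homeobox genes: vnd marks the ventral column and ind the intermediate one, while the Sox group B genes SoxN and D are active across the neuroectoderm and act with them. Within each column, clusters of cells express proneural bHLH genes of the achaete-scute complex, lateral inhibition through Notch selects a single cell from each cluster, and that cell delaminates as a neuroblast, which divides asymmetrically to give ganglion mother cells. The first neuroblasts form around the time of germ band extension, the period to which Stage 8 belongs.

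Raw counts per embryo summed to between 4213692 and 11935129, with 2030997 to 7639980 on protein-coding genes, and the lowest totals were in an AcfC embryo of Stage 8. Levels are given as CPM, the counts of a gene scaled to the protein-coding total of its embryo. Acf, the deleted gene, was at 39.5 to 65.9 CPM in the AcfC embryos and 465 to 497 CPM in the wild-type embryos of Stage 8, and its log2 fold change was −3.25 at Stage 8 (adjusted p = 3.71e-10) and −2.40 at Stage 3 (adjusted p = 2.10e-10). Adjusted p-values throughout are from the quasi-likelihood test of edgeR with Benjamini-Hochberg adjustment over all genes tested, two-sided, and a gene was called at an adjusted p under 0.1. Replicates are different animals of 1 line per genotype, so the tests measure the spread between embryos of these lines.

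The 10 genes lie on the X chromosome and the arms 2L, 3L and 3R, with coordinates given on the BDGP6 assembly. vnd (X, 582121 to 598151, plus strand), ac (X, 370031 to 370947, plus) and l(1)sc (X, 409721 to 410817, plus) lie together near the tip of the X chromosome. ac and l(1)sc belong to the achaete-scute complex, lie 38.8 kb apart, and fall within the span of CG32816, with which they share no exonic base. SoxN (2L, 8825645 to 8829670, plus) and wor (2L, 15423297 to 15425580, minus) are on chromosome arm 2L. ind (3L, 15042799 to 15043924, minus), D (3L, 14175610 to 14178620, minus) and nerfin-1 (3L, 909112 to 912319, plus) are on 3L. pros (3R, 11328480 to 11407627, plus) and mira (3R, 19931799 to 19935120, minus) are on 3R. pros alone shares exonic bases with another annotated gene, the noncoding lncRNA:CR46008, and reads on those bases cannot be told apart in nondirectional libraries.

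A feature that the choice of genes did not use is the lack of introns in some of them. ind, SoxN, ac, l(1)sc and nerfin-1 have no intron in any annotated transcript. This is 5 of the 10 genes, against 2114 of the 13728 protein-coding genes (15.4%) and 10.1% of the 3215 genes that were higher at Stage 8 than at Stage 3 in wild type. These shares are a description of a short list and were not tested.

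Before the zygotic genome is active, the 10 genes were at or near the limit of detection in both genotypes. In the 5 AcfC embryos of Stage 3 that entered the tests, the summed reads per gene ran between 1 for ind and 38 for l(1)sc, and in the 6 wild-type embryos between 1 for vnd, ind, wor and nerfin-1 and 24 for l(1)sc. At these numbers of reads, levels between embryos and genotypes differ by little more than counting error.

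The proneural pair was the exception at Stage 3, and only in single embryos. l(1)sc, a bHLH activator that gives cells the competence to become neuroblasts, had 18, 1, 16, 3 and 0 reads in AcfC replicates 1, 3, 4, 5 and 6, against 0, 0, 24, 0, 0 and 0 reads in wild-type replicates 1 to 6. Most of its reads thus came from AcfC replicates 1 and 4 and from wild-type replicate 3, and the groups overlapped. ac, its neighbour and fellow proneural gene, had 2, 0, 7, 0 and 0 reads in the same AcfC embryos, against 1, 0, 10, 0, 0 and 0 reads in wild type. Wild-type replicate 3 was again the highest of its group. In that embryo, vnd, ind, D, wor and nerfin-1 also had their only wild-type reads, 1 read each except D with 2.

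**Figure D1:**
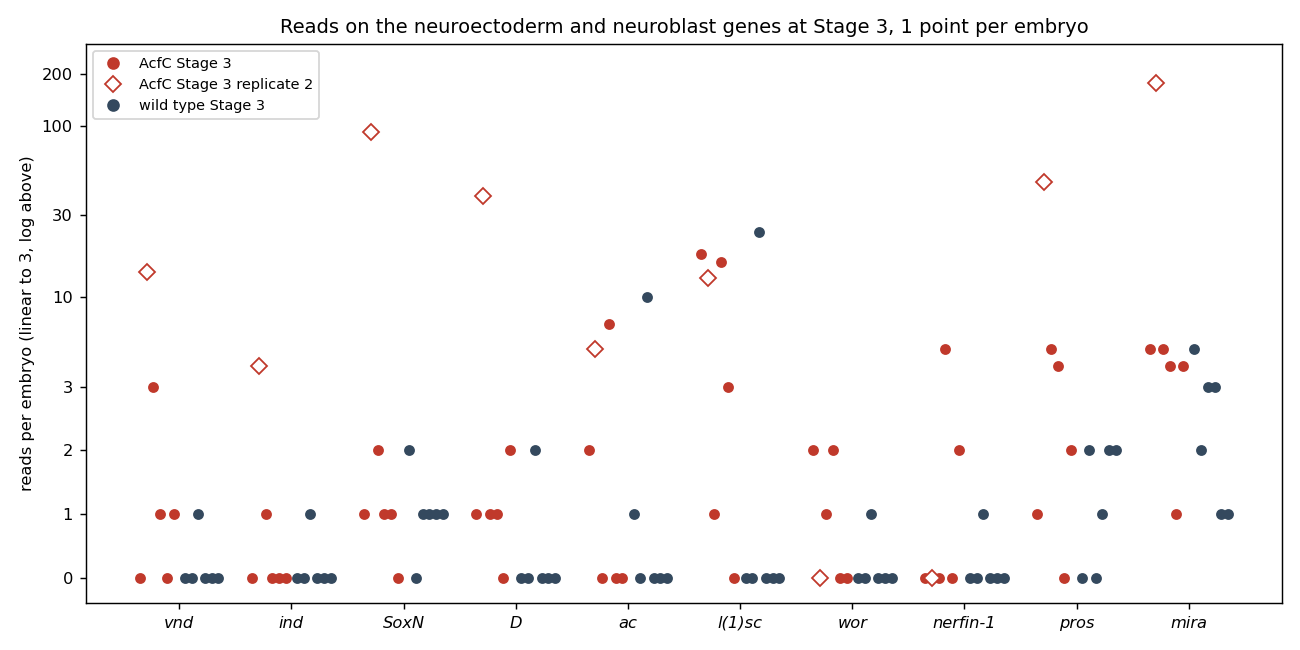
Reads on each of the 10 genes in each Stage 3 embryo, as raw counts on an axis that is linear to 3 and logarithmic above, with AcfC embryos left of wild-type embryos within each gene. AcfC replicate 2, left out of the tests, is drawn as an open diamond and reaches 177 reads for mira and 92 for SoxN, while no other embryo has more than 24 reads for any of the genes.

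The filter on low counts, which removes a gene when at least 50% of the embryos have no read on it, left 3 of the 10 genes to compare between genotypes at Stage 3. The log2 fold change of AcfC over wild type was 0.20 for SoxN (adjusted p = 0.919), 1.22 for pros (adjusted p = 0.372) and 0.77 for mira (adjusted p = 0.431), on 5, 12 and 19 reads in all in AcfC embryos and 6, 7 and 15 reads in wild type. By edgeR, 0 of the 3 were called, against 12.0% of the 7303 genes tested, and 0 of the 3 had an unadjusted p under 0.05, against 24.6%. DESeq2 called 0 as well. A genotype difference in these 3 genes was not detectable at this depth, and the interval for pros ran between −0.54 and 2.99 on the log2 scale.

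The call at Stage 3 depends on the embryo that was left out. AcfC replicate 2 had 177 reads on mira, 92 on SoxN, 47 on pros, 39 on D, 14 on vnd, 13 on l(1)sc, 5 on ac and 4 on ind. It lay above every wild-type embryo of Stage 3 for vnd, ind, SoxN, D, pros and mira, but had 0 reads on wor and on nerfin-1. Those 2 genes also had 0 reads in every wild-type embryo of Stage 3 except replicate 3. With it in the fit, the 3 tested genes were all called, with log2 fold changes of 3.98 for SoxN, 3.14 for pros and 3.74 for mira.

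By Stage 8 most of the genes were abundant, and their levels rose by factors of 40.8 or more over Stage 3 except for wor in wild type. In AcfC, 9 of the 10 genes passed the filter for the comparison of Stage 8 with Stage 3 and all 9 were higher at Stage 8, where 47.5% of the 7157 genes tested were. In wild type, 8 of the 10 passed and all 8 were higher, where 45.9% of the 7001 genes tested were. Genes that are near 0 at Stage 3 pass this filter only through their Stage 8 level, so these counts are a description. Each value is a sum over a whole embryo, so that more cells of a type and more RNA per cell cannot be told apart, here and at every result that follows. The stage and the genotype comparisons share libraries and are not independent of each other.

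SoxN showed the steepest change in AcfC. This Sox group B gene of the neuroectoderm had a log2 fold change of 11.92 in AcfC (1.15e-12 adjusted p) and 11.83 in wild type (3.29e-17 adjusted p). Its fellow group B gene D, also named Dichaete, had 10.84 in AcfC and 11.62 in wild type, where it was 13.29 without replicate 3 of Stage 3, the embryo that holds both of its wild-type reads at that stage. Both were among the most abundant of the 10 genes at Stage 8, after a handful of reads at Stage 3.

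The columnar genes followed a like course. vnd had a log2 fold change of Stage 8 over Stage 3 of 9.42 in AcfC and 10.95 in wild type, and ind had 9.61 in AcfC and 9.43 in wild type. The wild-type values of vnd and ind rest on 1 read each at Stage 3, and as ratios of summed counts, with exact intervals that cover counting error only, they were 3382 (606 to 133623) for vnd and 1181 (211 to 46687) for ind. The intervals show that only the lower end is fixed by the data. Without wild-type replicate 3 of Stage 3, the wild-type log2 fold changes were 12.03 for vnd and 10.50 for ind, and without AcfC replicate 3 of Stage 3 those of AcfC were 10.28 for vnd and 10.77 for ind.

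mira and pros, which act together in the neuroblast, also climbed. mira encodes the adaptor Miranda that carries Prospero and other fate determinants into the ganglion mother cell, and pros encodes that homeodomain determinant. The log2 fold change was 10.85 in AcfC and 11.50 in wild type for mira, and 9.82 in AcfC and 10.39 in wild type for pros. Every Stage 8 embryo was above every Stage 3 embryo used in the tests for both genes in both genotypes, as for 35.0% of the genes tested in AcfC and 35.1% in wild type.

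The proneural genes had the lowest log2 fold changes of the genes tested in wild type. ac had a log2 fold change of 6.30 in AcfC and 6.10 in wild type, and l(1)sc 6.22 in AcfC and 6.54 in wild type. Without wild-type replicate 3 of Stage 3, the wild-type values were 8.68 for ac and 11.32 for l(1)sc, so that this 1 embryo lowered both. In AcfC, ac had 7.91 without replicate 4 of Stage 3, and l(1)sc had 6.84 without replicate 1 of Stage 3.

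wor and nerfin-1 were the lowest of the 10 at Stage 8. nerfin-1, a zinc-finger gene of neuroblasts and young neurons, was at 240 reads over the AcfC embryos of Stage 8 and 7 reads over those of Stage 3, a ratio of 40.8 (19.5 to 103). In wild type it had 92 reads at Stage 8 and 1 read at Stage 3, a ratio of 139 (24.3 to 5545). wor, a Snail-family zinc-finger gene that marks neuroblasts, had 200 reads at Stage 8 and 5 at Stage 3 in AcfC, a ratio of 47.6 (20.1 to 148), against 2 reads at Stage 8 and 1 at Stage 3 in wild type, a ratio of 3.02 (0.157 to 178). In wild type wor thus did not change detectably between the stages.

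The stage changes of the 2 genotypes were also compared directly. In 1 fit of the 4 groups, the genotype-by-stage interaction called 0 of the 9 genes that passed the filter by edgeR, against 4.16% of the 7601 genes tested, and 0 of the 9 had an unadjusted p under 0.05, against 17.0%. DESeq2 called 0 too. wor was not tested there. With all 6 AcfC embryos of Stage 3 in the fit, 1 gene, mira, was called. The p-values rest on the few reads of Stage 3.

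The order of the levels at Stage 8 was set by comparing CPM per kilobase of exon. In AcfC the means were 340 for mira, 172 for SoxN, 111 for D, 84.4 for l(1)sc, 38.5 for ind, 28.4 for vnd, 26.7 for ac, 14.3 for pros, 4.62 for wor and 3.39 for nerfin-1. In wild type the means were 324 for mira, 145 for SoxN, 73.6 for D, 50.1 for l(1)sc, 27.7 for ind, 21.0 for ac, 20.7 for vnd, 9.93 for pros, 1.10 for nerfin-1 and 0.0365 for wor. mira was above SoxN, and SoxN above D, in every embryo of both genotypes. The proneural gene ac was not separated from the columnar gene vnd: vnd was above ac in 4 of the 6 AcfC embryos, and ac was above vnd in 3 of the 6 wild-type embryos. wor was above nerfin-1 in 2 of the 6 AcfC embryos, and nerfin-1 was above wor in all 6 wild-type embryos. The per-kilobase value of pros is low for its reads because its annotated exons sum to 24892 bases, many times those of the other genes.

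At Stage 8, D, ind and wor were called higher in AcfC, and the other 7 genes did not pass the test. Of the 12 fits that each dropped a single embryo, D was called in 12, wor in 5 and ind in 2. All 10 had a positive log2 fold change of AcfC over wild type, where 52.3% of the 9448 genes tested did, and their median was 0.50, against 0.014 over all genes. By edgeR, 3 of the 10 (D, ind and wor) were called higher and 0 were called lower, against 2.22% of genes higher, 2.05% lower and 4.28% in either direction. At an unadjusted p under 0.05 there were 7 of 10, against 16.2% of genes. The 10 genes are not independent, since several were high in the same embryos, as given further on. They were also chosen with earlier results of these data known. wor passed the filter on low counts only through its AcfC embryos, since in wild type only replicates 4 and 6 had a read, 1 each. Its part in these counts is therefore a description.

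D showed the most even difference. D, which acts in segmentation before its part in the neuroectoderm, was at 282, 293, 369, 274, 423 and 320 CPM in AcfC replicates 1 to 6, against 237, 181, 265, 197, 178 and 237 CPM in wild-type replicates 1 to 6. Every AcfC embryo was above every wild-type embryo, as for 1.24% of the genes tested. The means were 327 ± 58.4 CPM in AcfC and 216 ± 35.6 CPM in wild type (SD, n = 6 each), and the log2 fold change was 0.59 ± 0.12 (SE; adjusted p = 0.0197, edgeR), a factor of 1.51. The value stayed between 0.49 and 0.65 in the 12 fits that each dropped a single embryo, and D was called in 12 of 12. Within the first set of library indices (replicates 1 to 3) it was 0.46 (adjusted p = 0.261), and within the second (replicates 4 to 6) 0.73 (adjusted p = 0.211), with 3 embryos per group in each.

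SoxN, the other group B gene, showed a smaller difference. It was at 607, 697, 656, 629, 997 and 559 CPM in AcfC replicates 1 to 6, against 599, 653, 561, 557, 601 and 542 CPM in wild type. AcfC replicate 5 was the highest by a wide margin, replicates 2 and 3 lay just above the highest wild-type embryo, and the other 3 AcfC embryos lay within the wild-type range. AcfC over wild type gave a log2 fold change of 0.23 ± 0.13 (SE; adjusted p = 0.395) and was 0.081 without replicate 5.

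Of the columnar genes, ind was called and vnd was not. ind, which gives the intermediate column its identity, was at 31.3, 42.9 and 54.1 CPM (lowest, median and highest) in the AcfC embryos, against 23.4, 31.0 and 38.6 CPM in wild type. All AcfC embryos except replicate 5 were above every wild-type embryo. The log2 fold change was 0.47 ± 0.14 (SE; adjusted p = 0.0930, edgeR), a factor of 1.39, and it lay close to the threshold: dropping single embryos moved it between 0.40 and 0.54 and kept the call in 2 of 12 fits. Within the index sets it was 0.44 (adjusted p = 0.226) and 0.50 (adjusted p = 0.333). At an adjusted p under 0.05 it was not called.

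vnd, which specifies the ventral column, was at 110, 88.1, 172, 117, 171 and 78.1 CPM in AcfC replicates 1 to 6, against 104, 87.3, 97.0, 108, 77.4 and 63.5 CPM in wild type. The groups overlapped, and AcfC replicates 3 and 5 were the embryos that exceeded all the rest by a wide margin. The log2 fold change was 0.45 ± 0.20 (SE; adjusted p = 0.281), and it was 0.23 without AcfC replicates 3, 5 and 6.

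ac and l(1)sc varied strongly between embryos of the same genotype. l(1)sc was at 81.5, 40.1, 65.6, 54.7, 114 and 199 CPM in AcfC replicates 1 to 6, against 67.1, 64.0, 72.0, 64.1, 26.1 and 36.3 CPM in wild type, with a log2 fold change of 0.73 ± 0.34 (SE; adjusted p = 0.308). AcfC replicates 6 and 5 were the highest of the 12 embryos and wild-type replicates 5 and 6 the lowest. ac was at 28.2, 13.5, 16.4, 4.43, 18.5 and 66.1 CPM in AcfC replicates 1 to 6, against 26.6, 19.2, 35.2, 19.8, 2.72 and 12.0 CPM in wild type. It ran over a range of 14.9-fold within AcfC and 13.0-fold within wild type, and its log2 fold change of 0.32 ± 0.52 (SE; adjusted p = 0.820) turned to −0.20 without AcfC replicate 6. For l(1)sc, within the first index set, the log2 fold change was −0.12.

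wor and nerfin-1 were high in the same embryos. wor was at 0, 0.459, 10.0, 0.492, 0.553 and 50.1 CPM in AcfC replicates 1 to 6, from 0, 2, 57, 1, 2 and 138 reads, against 0, 0, 0, 0.250, 0 and 0.236 CPM in wild type, where 2 reads were counted in all. Replicates 3 and 6 hold nearly all of the wor reads of the AcfC embryos, and the other 4 AcfC embryos were within or near the wild-type range. The ratio of summed counts of AcfC over wild type was 107 (29.1 to 886, exact 95% interval for counting error only). The fitted log2 fold change of 6.44 ± 1.67 (SE; adjusted p = 0.0612, edgeR) depends on the prior count, since no wild-type embryo had more than 1 read.

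The call on wor is not robust to the choice of embryos. Dropping single embryos kept the edgeR call in 5 of 12 fits, with log2 fold changes between 4.53 and 6.94, and without AcfC replicate 6 it was 4.53 (adjusted p = 0.104). With filterByExpr, a stricter filter on low counts, wor was not tested. Within the second index set, the log2 fold change was 6.33 (adjusted p = 0.276), while in the first it did not pass the filter.

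nerfin-1 was at 5.76, 3.21, 14.4, 3.45, 3.87 and 34.5 CPM in AcfC replicates 1 to 6, against 5.27, 0.556, 7.50, 2.75, 2.17 and 2.83 CPM in wild type. The same replicates 3 and 6 of AcfC were the highest, and the other 4 AcfC embryos lay within the wild-type range. The fitted log2 fold change was 1.55 ± 0.62 (SE; adjusted p = 0.228), and it was 0.23 without these 2 embryos.

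pros, the determinant that Miranda carries, varied more in AcfC than in wild type. It was at 403, 259, 350, 232, 584 and 307 CPM in AcfC replicates 1 to 6, against 256, 277, 268, 229, 215 and 239 CPM in wild type, with a log2 fold change of 0.52 ± 0.18 (SE; adjusted p = 0.173). Replicate 5 was again the highest AcfC embryo, and AcfC replicates 2 and 4 overlapped wild type. pros was called in 1 of the 12 fits that left out an embryo, the one without AcfC replicate 4.

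mira had the lowest log2 fold change of the 10 genes. Its level was 958, 1142 and 1248 CPM (lowest, median and highest) in AcfC and 975, 1082 and 1151 CPM in wild type. The log2 fold change was 0.065 ± 0.070 (SE; adjusted p = 0.707), with a 95% interval of −0.084 to 0.21. The embryos overlapped throughout, and among the 10 genes mira had the lowest coefficient of variation within each genotype, 8.71% in AcfC and 5.28% in wild type.

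**Figure D2:**
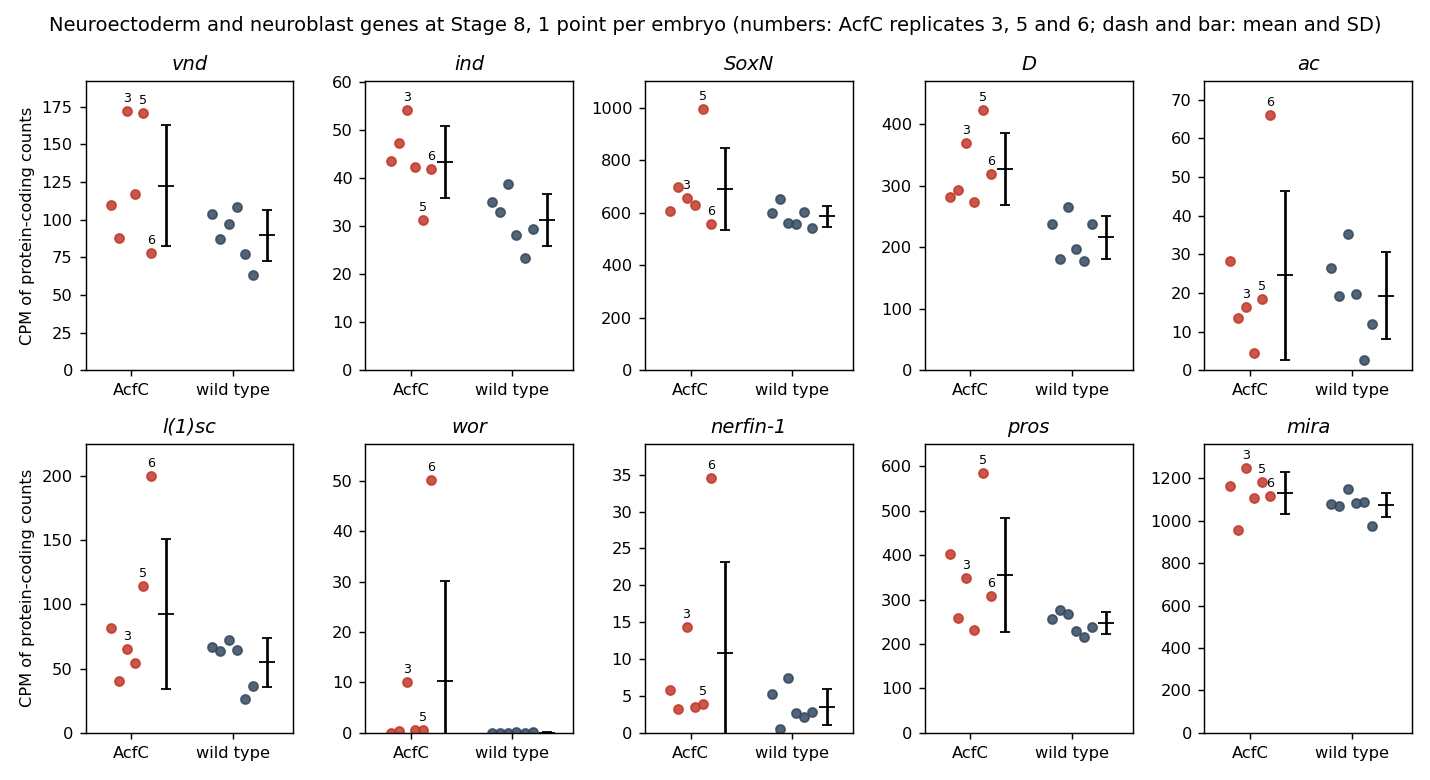
CPM of each of the 10 genes in each Stage 8 embryo, AcfC left of wild type, with mean and SD beside the points, and with AcfC replicates 3, 5 and 6 numbered. The linear axes start at 0, and the lower end of the SD bar of wor and nerfin-1 in AcfC is cut off there. D has every AcfC embryo above every wild-type embryo, and wor stands out through replicates 3 and 6 alone.

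**Figure D3:**
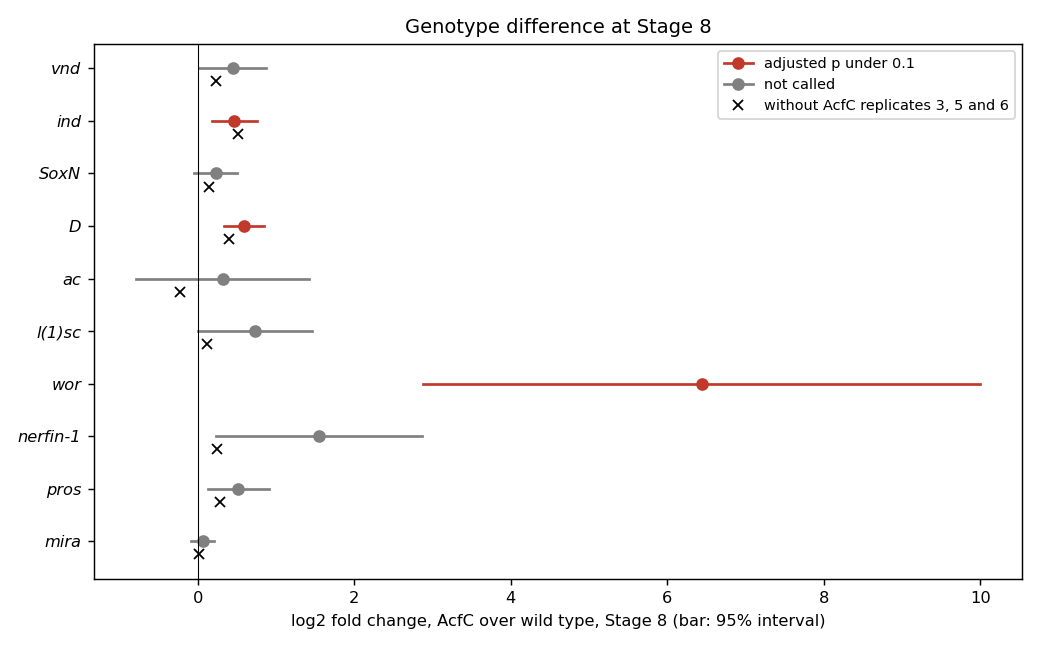
Log2 fold change of AcfC over wild type at Stage 8, with 95% intervals, for each gene. The genes called (ind, D and wor) are drawn in red and the others in grey, and a cross marks the value without AcfC replicates 3, 5 and 6, a fit in which wor was not tested. All 10 points are above 0, and the cross of ac lies below 0.

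A few AcfC embryos hold the extreme values, and they are not the same for all genes. Among the 12 Stage 8 embryos, AcfC replicate 3 was the highest for 3 of the 10 genes, replicate 5 for 3 and replicate 6 for 4. Wild-type replicate 5 was the lowest for 5 genes and wild-type replicate 6 for 2. Replicate 5 was the highest for SoxN, D and pros, and replicate 6 for ac, l(1)sc, wor and nerfin-1.

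Summed levels of genes of other regions also lay outside the wild-type range in AcfC replicates 3 and 5, and for the dorsal ectoderm in AcfC replicate 4. The summed level of the 5 dorsal ectoderm genes (zen, pnr, tup, ush and Ance) was 446 CPM in AcfC replicate 3, 349 CPM in replicate 5 and 1043 CPM in replicate 6, and it was 705 to 983 CPM in the other AcfC embryos and 867 to 1169 CPM in wild type. All 5 of these genes had a negative log2 fold change, where 52.3% of all genes tested had a positive one. By edgeR, 0 of the 5 were called, against 4.28% of all genes, and 1 had an unadjusted p under 0.05, against 16.2%. pnr, a GATA factor of the dorsal ectoderm, had 27 reads in AcfC replicate 5, against 482 to 912 reads in the wild-type embryos. The 5 mesoderm genes (twi, sna, Mef2, htl and tin) summed to 1296 CPM in AcfC replicate 5 and 1197 CPM in replicate 3, with 821 to 862 CPM in the other AcfC embryos and 655 to 918 CPM in wild type. Replicate 5 thus combined the lowest dorsal ectoderm sum of the 12 embryos with the highest mesoderm sum, and the part of this in the values of SoxN, D and pros was not tested.

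AcfC replicate 6 stood apart in another way. zen was at 0.726 CPM in it, ftz at 16.7 CPM and eve at 8.35 CPM, from 2, 46 and 23 reads and each the lowest level of the 12 embryos, while wor, nerfin-1, ase and scrt were at their highest. ase, the achaete-scute gene that is expressed in neuroblasts, had 11, 7, 48, 1, 4 and 60 reads in AcfC replicates 1 to 6, against 8, 2, 3, 1, 0 and 1 reads in wild type. scrt, a Snail-family gene of neural cells, had 100, 45, 127, 5, 45 and 265 reads in AcfC replicates 1 to 6, against 49, 4, 30, 20, 8 and 24 reads in wild type. Both are highest in the embryos that are highest in wor. The summed level of the germ band genes en, eve and ftz was lowest in AcfC replicate 5 (136 CPM) and next in replicate 6 (166 CPM), with 225 to 309 CPM in wild type. Most of the 457 reads of that sum in replicate 6 were on en. On the log2 scale over the wild-type mean of CPM + 1, zen was at −3.61 in replicate 6. The other dorsal ectoderm genes did not share this fall: pnr was at 0.22, ush at 0.094, Ance at 0.29 and tup at −0.42. The part of the low zen, ftz and eve levels in the values of wor and nerfin-1 was not tested.

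**Figure D4:**
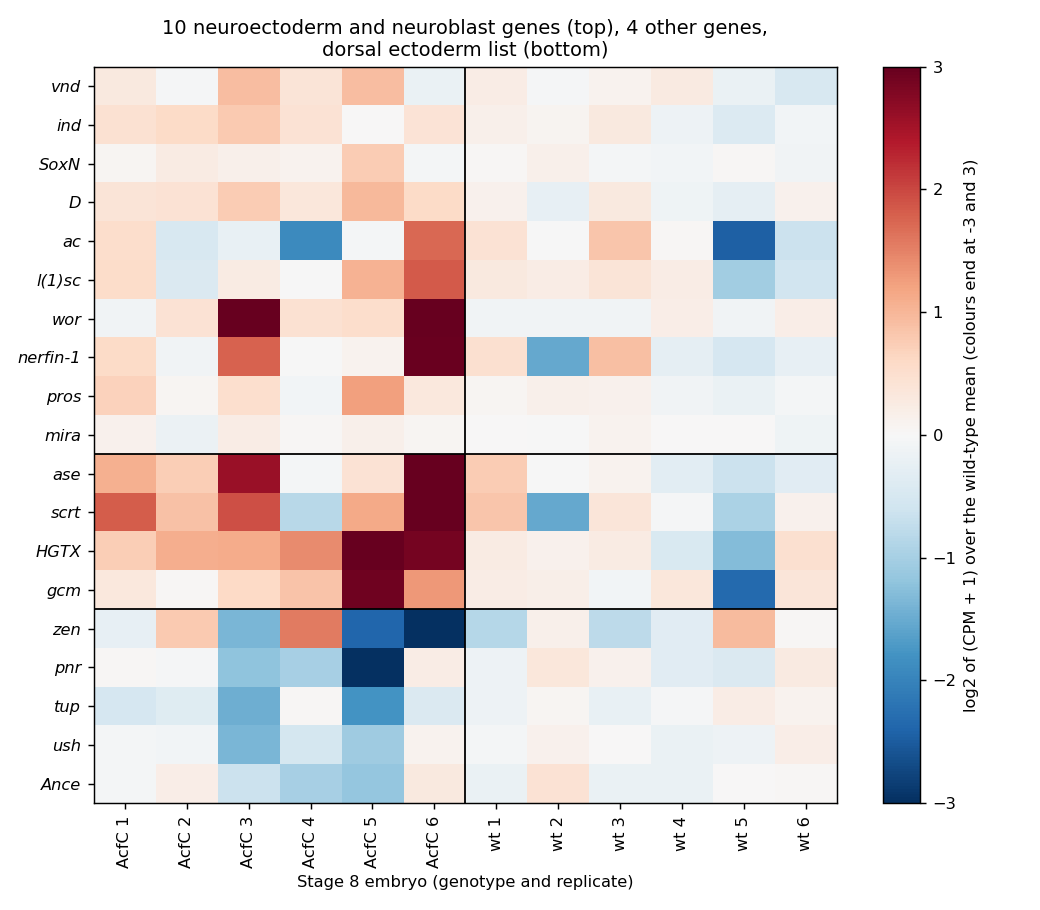
Log2 of CPM + 1 over the wild-type mean of CPM + 1 in each Stage 8 embryo, AcfC embryos left of wild-type embryos, for the 10 genes, for ase, scrt, HGTX and gcm, and for the 5 dorsal ectoderm genes. The colour scale ends at −3 and 3. AcfC replicates 3 and 6 are dark red for wor and ase, and replicate 5 is dark blue for pnr.

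Leaving these embryos out changes the count of calls. Without AcfC replicates 3 and 6, 1 of the 9 genes tested was called (D, 0.58 on the log2 scale, adjusted p = 0.0543), and without replicates 3, 5 and 6, 0 of the 9 were. Over all genes, 135 were higher and 166 lower of 9380 in the first fit, and 84 higher and 95 lower of 9489 in the second. In that fit of 3 AcfC and 6 wild-type embryos, D had 0.40 (adjusted p = 0.133) and ind 0.52 (adjusted p = 0.140), 8 of the 9 genes still had a positive value, and the median over the 9 was 0.23, against −0.014 over all genes. Both settings were chosen after seeing the values.

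The 3 X-linked genes were set against Sxl, a gene whose early transcription depends on the number of X chromosomes. Sxl was at 314 to 391 CPM in AcfC replicates 2 and 3 and in wild-type replicates 5 and 6, and at 1171 to 1335 CPM in the other 8 Stage 8 embryos. Within wild type, replicates 5 and 6 had the lowest levels of vnd (77.4 and 63.5 CPM), l(1)sc (26.1 and 36.3 CPM) and ac (2.72 and 12.0 CPM). Within AcfC, l(1)sc was lowest in replicate 2 but not in replicate 3, and vnd was highest in replicate 3. With the level of Sxl as a covariate, l(1)sc was called as well (log2 fold change 0.79, adjusted p = 0.0949, edgeR), so that 4 of the 10 genes were, a setting also chosen after seeing the values. With the summed level of roX1 and roX2 as the covariate instead, 2 of the 10 were called (ind and D): l(1)sc had 0.34 (adjusted p = 0.673) and wor had 6.46 (adjusted p = 0.107). Of 9448 genes tested, 285 were higher and 238 lower with Sxl as covariate, and 147 higher and 100 lower with the roX sum. roX1 and roX2 are noncoding RNAs of the male X chromosome, and nearly all of their sum was roX1. roX1 was lowest in the embryos low in Sxl, at 1457 to 1594 CPM, against 1687 to 3298 CPM in the other 8. Within each genotype, roX2 was highest in those same embryos, on 12 to 37 reads. It was at 6.9 and 6.5 CPM in AcfC replicates 2 and 3, and 3.3 and 6.1 CPM in wild-type replicates 5 and 6. Across genotypes its levels overlapped, since AcfC replicate 5 had 4.7 CPM. Whether either RNA marks the sex of an embryo was not tested.

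Other genes of the same pathways were counted from lists, which were written with earlier results of these data known. Of the 12 further columnar and dorsoventral genes, all tested, 4 were higher in AcfC at Stage 8 and 0 lower, against 2.22% higher and 2.05% lower over all genes. They were HGTX, vn, pnt and spi. HGTX, the Nkx6 homeobox gene of ventral neuroblasts and motor neurons, was at 6.38, 8.48, 8.61, 10.8, 48.4 and 31.6 CPM in AcfC replicates 1 to 6, against 4.26, 3.89, 4.32, 2.25, 0.815 and 5.19 CPM in wild type. Every AcfC embryo was above every wild-type embryo, with the highest values in replicates 5 and 6, and the log2 fold change was 2.42 (adjusted p = 0.0358). vn and spi encode ligands of the EGF receptor, which acts in the ventral and intermediate columns, and pnt encodes the ETS factor downstream of it. The log2 fold changes were 0.65 for vn (adjusted p = 0.0443), 0.52 for pnt (adjusted p = 0.0181) and 0.28 for spi (adjusted p = 0.0351), and for pnt and spi, as for HGTX, every AcfC embryo was above every wild-type embryo, against 1.24% of all genes tested.

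The count of calls in this list moved with the embryos used. Without AcfC replicates 3 and 6, 6 of the 12 columnar and dorsoventral genes were called higher, against 135 of 9380 over all genes. Without replicates 3, 5 and 6, 1 of the 12 was, against 84 of 9489 over all genes. The median log2 fold change of the list was 0.40, against 0.014 over all genes. vn was also higher in AcfC at Stage 3 (0.66, adjusted p = 0.0833), on a mean of 22.4 reads per embryo.

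Of 14 further proneural and lateral inhibition genes, 13 were tested at Stage 8 and 2 were higher, 0 lower, against 2.22% higher and 2.05% lower over all genes. These were ase (3.22, adjusted p = 0.0743) and H (0.39, adjusted p = 0.0783), and H encodes Hairless, an antagonist of Notch signalling. The median of the list was 0.14. At Stage 3, 2 of the 10 genes tested were called, against 12.0% of all genes. These were emc and N, higher in AcfC with log2 fold changes of 0.34 (adjusted p = 0.0259) and 0.15 (adjusted p = 0.0821), where emc encodes an inhibitor of proneural proteins and N the Notch receptor. For emc every AcfC embryo used was above every wild-type embryo, as for 2.78% of the genes tested.

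Of 18 further genes of neuroblasts and ganglion mother cells, 16 were tested at Stage 8 and 2 were higher, scrt (2.34, adjusted p = 0.0838) and klu (1.75, adjusted p = 0.0520), with 0 lower and a list median of 0.30, against 2.22% higher and 2.05% lower over all genes. klu, a zinc-finger gene of neuroblasts, was at 13.6, 14.4, 13.7, 12.3, 3.60 and 10.9 CPM in AcfC replicates 1 to 6, against 0.203, 3.34, 4.55, 5.01, 3.53 and 3.78 CPM in wild type. It thus differed in a set of embryos other than wor did: AcfC replicate 5 alone lay within the wild-type range. Without AcfC replicates 3, 5 and 6, 1 gene of this list was called higher, against 84 of 9489 over all genes. At Stage 3, Sox102F was higher in AcfC (1.11, adjusted p = 0.0280), 1 call among 8 genes tested, a share near the 12.0% of all genes.

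The machinery of asymmetric division places the fate determinants and orients the spindle of the neuroblast. Of its 18 genes, such as insc, numb, baz, aPKC and pins, 0 were called by edgeR in either direction at Stage 8, 2 had an unadjusted p under 0.05, DESeq2 called 1 lower, and the median was −0.034, where 4.28% of all genes were called and 16.2% had an unadjusted p under 0.05. At Stage 3, l(2)gl (0.33, adjusted p = 0.00895) and dlg1 (0.18, adjusted p = 0.0393) were higher in AcfC, 2 of the 18 tested, a share near the 12.0% of all genes. Between stages, 14 of the 18 were higher and 2 lower at Stage 8 in each genotype. Over all genes tested, 47.5% were higher in AcfC and 45.9% in wild type. The list median was 0.71 in AcfC and 0.77 in wild type, against medians over all genes of 0.15 in AcfC and 0.046 in wild type. aurA, which encodes the Aurora A kinase, had the lowest values, −2.14 in AcfC and −2.20 in wild type. The summed level of the 18 genes at Stage 3 was already 6569 to 7064 CPM in the AcfC embryos tested and 6528 to 7099 CPM in wild type. In the same embryos mira, a single gene, had at most 1.13 CPM in AcfC and 0.903 CPM in wild type.

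Genes of differentiated cells were in part absent. In the AcfC and wild-type embryos of Stage 8, repo, which marks differentiated glia, had 0 to 4 reads in AcfC and 1 to 6 reads in wild type. elav, the pan-neuronal RNA-binding protein gene, was at 336 to 474 CPM in AcfC and 307 to 413 CPM in wild type. The 6 neuronal genes had 0 calls by edgeR between genotypes, with 1 at an unadjusted p under 0.05, and the 3 glial genes likewise had 0 calls and 1. Over all genes tested, 4.28% were called, 16.2% had an unadjusted p under 0.05 and 52.3% had a positive log2 fold change. The median log2 fold change was 0.81 for the neuronal genes, all 6 of them positive. For the glial genes it was 1.41, with 2 of the 3 positive. Both were above the median of 0.50 of the 10 neuroectoderm and neuroblast genes, but a list median weighs each gene alike, whatever its reads. elav held most of the reads of the neuronal genes, and their summed level had a median of 435 CPM in AcfC and 418 CPM in wild type. gcm, the glial determinant, which is also active in blood cell precursors, was at 192 CPM in AcfC replicate 5, 25.2 to 61.4 CPM in the other AcfC embryos and 4.07 to 31.6 CPM in wild type.

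The gene whose profile was nearest to each of the 10 was sought among all genes that passed the filter, by the root mean square difference of log2(CPM + 1), centred on each gene's mean, over 23 embryos. The nearest were uif for mira (0.24), ltl for pros (0.24), Sr-CII for SoxN (0.25), sim for vnd (0.25), Dlish for ind (0.25) and CG4440 for D (0.27). The proneural and late genes had no near neighbour: upd1 for l(1)sc (0.37), Wnt4 for nerfin-1 (0.48), CG17707 for ac (0.60) and Ppn for wor (0.78). The measure is dominated by the change between stages.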

How the data were processed

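Single-embryo RNA-seq of AcfC and wild type (OrR) at Bownes Stages 3 and 8 was analysed. After rRNA depletion and nondirectional library preparation, the authors aligned the read pairs to release 6 of the fly genome with STAR 2.5.0a, and the table they deposited holds raw counts per gene. Spike-in RNA was added to the lysates, but its counts were not used here. Groups came from the labels. The genes and lists were chosen with earlier results of these data known.

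Counts were tested in R 4.3.3 with edgeR 4.0.16 (TMM, quasi-likelihood, Benjamini-Hochberg adjustment). Protein-coding genes (Ensembl annotation of BDGP6) were tested. Genotype comparisons dropped genes without reads in 50% or more of the embryos, the study's rule, and stage comparisons used filterByExpr. Named genes were all 10 members and, from each list and comparison, the 2 called genes of highest absolute log2 fold change in each direction, given a mean of 10 counts or more. pnt, spi, zen, pnr, gcm, repo and elav were named after their values were seen. 1 gene of the proneural list and 1 of the neuroblast list were not analysed here.

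The replicate numbers were not taken to pair embryos, since not every pair was over 0.1: the correlation of same-numbered deviations was −0.060 to 0.18 over 6 pairs at Stage 8 and −0.54 to 0.27 over 5 pairs at Stage 3, where 3 were over 0.1. Replicates within a group differed by more than counting error (chi-square per degree of freedom 2.10 to 26.7). The test was checked on simulated data. Alternatives were DESeq2 1.42.0, other scalings and filters, a threshold of 0.05, index set, replicate block, Sxl or summed roX levels as covariates and leaving out embryos.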

Additional observations from a re-analysis of the deposited data

Results flagged for a closer look

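In groups of 6 embryos, or 5 for AcfC Stage 3 without replicate 2, a gap test looked for an embryo far from the others. For independent, normally distributed groups, which low counts and genes of the same embryos are not, chance gives about 1 in 20. The test marked an embryo in 5 of the 25 combinations of gene and group with at least 10 reads. They were SoxN in AcfC Stage 8 replicate 5 (997 CPM, next embryo 697), wor and nerfin-1 in AcfC Stage 8 replicate 6 (50.1 and 34.5 CPM, next embryo 10.0 and 14.4), and ac and l(1)sc in wild-type Stage 3 replicate 3 (2.05 and 4.91 CPM, next embryo 0.181 and 0).

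AcfC Stage 3 replicate 2, which entered no test, was above every wild-type embryo of Stage 3 for 6 of the 10 genes. It had 2.35 CPM of vnd, 0.672 of ind, 15.5 of SoxN, 6.55 of D, 7.90 of pros and 29.7 of mira, against highest wild-type values of 0.205, 0.205, 0.361, 0.409, 0.334 and 0.903 CPM.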

How the results depend on the processing

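At Stage 8, 3 of the 10 genes were called. The number was 1 at an adjusted p under 0.05, 0 within index set 1, 0 within index set 2, 1 without AcfC replicates 3 and 6, and 0 without AcfC replicates 3, 5 and 6. Dropping single embryos gave 1 to 3, and 1 without any of wild-type replicates 1, 2, 4, 5 and 6 or AcfC replicate 6. At Stage 3 the number was 0, and 3 with all 6 AcfC embryos; the interaction had 0, and 1 with all 6. All stage comparisons kept their calls under the alternatives run. The cause of these changes was not tested; the index sets and the left-out groups also hold fewer embryos. Signs turned for genes that were not called: ac was −0.48 within index set 1, −0.18 without AcfC replicates 3 and 6, −0.23 without 3, 5 and 6, and −0.20 to 0.57 leaving out each embryo. l(1)sc was −0.12 within index set 1. SoxN at Stage 3 was −0.32 within index set 2, −0.060 with the replicate block, and −0.24 to 0.58 leaving out each embryo.

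Over all genes, 404 were called at Stage 8, and 623 by DESeq2, 178 at 0.05, 51 and 2 within the index sets, 252 with the replicate block, 908 in one fit of 4 groups, 247 with roX, 179 without AcfC replicates 3, 5 and 6, and 193 (without wild-type replicate 4) to 449 (without AcfC replicate 4) leaving out each embryo, with 218, 268, 247 and 245 without wild-type replicates 1, 3 and 6 and AcfC replicate 2. At Stage 3 there were 877, and 498 at 0.05, 52 within index set 1, 312 with the replicate block, 510 in one fit, 1341 with all 6 AcfC embryos, and 475 (without AcfC replicate 1) to 1842 (without wild-type replicate 3) leaving out each embryo, with 555, 576 and 495 without wild-type replicates 2 and 6 and AcfC replicate 4. The interaction had 316, and 585 by DESeq2, 191 without a filter, 169 at 0.05, 22 within index set 1, 484 with all 6, and 185 (without AcfC Stage 3 replicate 4) to 652 (without wild-type Stage 3 replicate 3) leaving out each embryo. With the replicate block, 3 of the 10 genes were called at Stage 8, as without it. Levels of 1 to 5 reads at Stage 3 limit what can be said there.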
